A study of Eriobotrya japonica with 9 samples.

Results

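The genes described here are those that the deposited expression table of loquat (*Eriobotrya japonica*) places on KEGG map00195, Photosynthesis. This map holds photosystem II, the cytochrome b6/f complex, photosystem I, the soluble electron carriers and the chloroplast ATP synthase. The table lists 69 such genes among 43996, of which 7277 are on any KEGG map. Membership rests on this annotation alone, and no gene was picked by its expression. The map itself was chosen with earlier results of these data known. Of the 69, 59 are on map00195 only, and 10 are also on map00190, oxidative phosphorylation, a map that likewise draws an ATP synthase.

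Leaves of seedlings were sequenced in 3 groups of 3 libraries, all labelled day 10. CK plants were given water. ST plants were given water and then 200 mmol/L NaCl. MTST plants had their roots irrigated with 150 µmol/L melatonin before the same NaCl dose. Seedlings grew in pots and were raised from tissue culture of seed from Mengzi, and the study describes the 3 samples of a treatment as biological replicates. The labels do not say how many plants entered 1 library. A group with melatonin and no salt was not analysed here, so melatonin is compared under salt only.

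In the light reactions, photosystem II takes electrons from water and passes them through plastoquinone to the cytochrome b6/f complex, which hands them to plastocyanin. Photosystem I lifts the electrons to ferredoxin, from which NADPH is made, or they return to the cytochrome complex in cyclic transport. Both routes move protons into the thylakoid lumen, and the ATP synthase uses this gradient. Some subunits are encoded in the nucleus and others in the plastid, and transcripts of the nuclear ones are among the most abundant of a leaf. Which genome holds each gene described here was not checked.

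The table gives no gene names. Roles below are those of its Gene Ontology (GO) terms, which 43 of the 69 genes carry, and all 43 have a plastid or chloroplast term and none a mitochondrial one. The thylakoid is named for 39 of them, against 494 genes in the whole table. Of the 43, 34 share an identical set of GO terms with at least 1 other gene on the map, in 14 groups, most of them pairs. Whether such pairs are near-identical copies between which reads could be divided was not checked, since no sequence was used here, and the levels of single pair members are uncertain to that extent.

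Sequencing depth was even, with 13048770 to 14468499 reads per library (median 13535064). Replicates differed by more than counting noise, with a chi-square per gene of 3.11 to 28.5 between libraries of a group, the largest of them between ST replicates 1 and 2. Per-library scaling factors (median of ratios) were 0.859 to 0.874 in CK, 1.16 to 1.21 in ST and 0.972 to 1.03 in MTST, and the 10 most abundant genes of each library took 11.3% ± 0.231 (SD, n = 3) of the TPM (reads per transcript length, scaled to the same total in every library) in CK, 5.87% ± 0.284 in ST and 9.75% ± 0.494 in MTST. Since the total is fixed, a loss from the most abundant genes raises the values of the rest. For this reason calls are also given after median-of-ratios scaling, which takes the typical gene as unchanged. How far a loss from the 10 most abundant genes accounts for the scaling factors was not tested. Fold changes are differences of log2(TPM + 1), a scale that makes the changes of weak genes look smaller. Tests are limma's, and a gene was called where its p-value, adjusted by Benjamini-Hochberg over all 23641 genes tested, did not exceed 0.05.

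Of the 69 genes, 63 passed the filter (a TPM of 1 or more in 3 or more of the 9 libraries) and were tested, 2 were detected below it, and 4 had 0 reads in all 9 libraries. A count of 0 allows up to 3 reads, or 0.207 to 0.23 CPM, in a library. The undetected genes were Ej00022744, Ej00037878, Ej00059950 and Ej00064297, and all but Ej00037878 are on map00190 as well. Below the filter were Ej00029091, at 0.363 to 0.743 TPM over the 9 libraries, and Ej00028918, with reads in the MTST libraries only (0.284, 0.286 and 1.1 TPM). The detected genes were highly expressed. The 63 had a median level of 524 TPM in CK, and their levels there ran from 0.529 to 5500 TPM, whereas the median of all tested genes over the 9 libraries was 12.7 TPM. Of the 100 most abundant genes of the leaf, 24 were on this map in CK, 16 in ST and 18 in MTST.

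The photosynthesis genes together made up a smaller share of the leaf transcripts after salt, and an intermediate share where melatonin had been given first. Their summed level was 6.46%, 6.45% and 6.91% of all TPM in the CK libraries, 4.06%, 3.63% and 3.75% in ST, and 5.10%, 5.56% and 5.39% in MTST. The 3 groups did not overlap. The means were 6.61% ± 0.263 (SD, n = 3), 3.81% ± 0.222 and 5.35% ± 0.233. After median-of-ratios scaling the same sums were 7.65% ± 0.346 in CK, 3.22% ± 0.117 in ST and 5.35% ± 0.333 in MTST, so the order was the same and the gap between CK and ST was wider. In whole leaves, fewer photosynthetic cells and less of these transcripts per cell cannot be told apart. The antenna protein genes of map00196, whose proteins bind the chlorophyll that feeds the photosystems, and the carbon fixation genes of map00710 served as leaf markers. Their summed levels moved alongside. Taken singly, the carbon fixation genes were split in ST against CK, with 42 of 90 lower and 38 higher. The antenna genes took 5.99% ± 0.605 of the TPM in CK, 3.43% ± 0.189 in ST and 5.22% ± 0.0586 in MTST. The carbon fixation genes took 5.75% ± 0.0321, 2.89% ± 0.0624 and 4.08% ± 0.103. Their part in the results below was not tested.

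**Figure D1:**
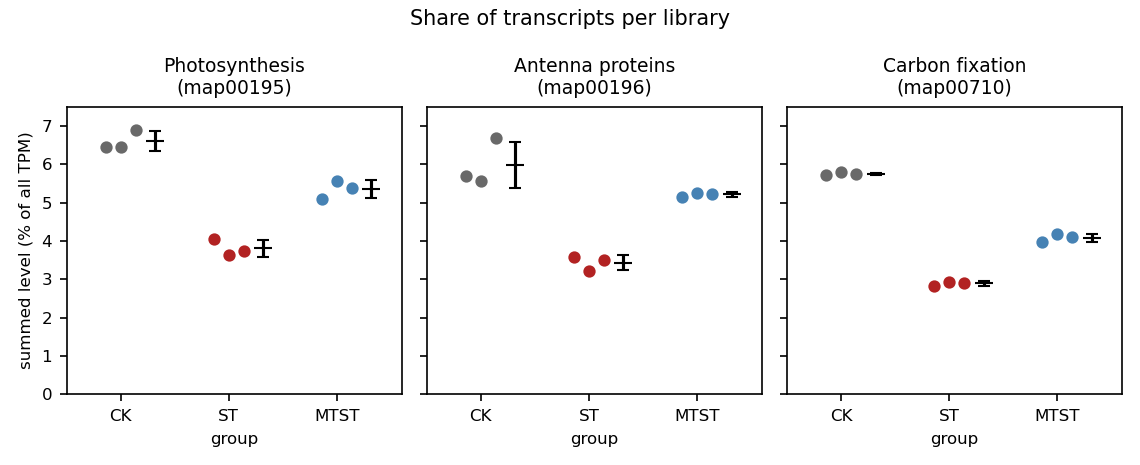
Summed level of the 69 photosynthesis genes, the antenna protein genes and the carbon fixation genes, as percent of all TPM (vertical axis), in each library (points) of CK, ST and MTST, with the group mean and SD (black). For the photosynthesis genes the CK libraries lie between 6.45% and 6.91%, ST between 3.63% and 4.06%, and MTST between 5.10% and 5.56%.

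The first comparison asks what salt did to these genes, ST against CK. Of the 63 tested, 42 were lower in ST, 3 were higher and 18 were not called. Over all tested genes the split was the other way, with 10.6% lower and 52.8% higher. A fall of at least 2-fold was called for 18 of the 63 genes, against 3.39% of all tested genes. The median log2 fold change was -0.64 for the photosynthesis genes (range -1.71 to 1.38) and 0.41 for all tested genes. After median-of-ratios scaling, which brought the median of all genes to 0.01, 48 were lower and 2 higher, with a median of -1.09, and 23.4% of all tested genes were lower and 22.8% higher. Of the 42 falls, 37 were called in each of the 17 other analyses that tested the gene, and no call changed direction in any. Without ST replicate 1, 41 were lower and 2 higher.

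Most of the falls were found among the abundant genes. Of the 45 photosynthesis genes with a mean of at least 100 TPM, 38 were lower and 0 were higher in ST, with a median log2 fold change of -0.88. Of the 18 below that level, 4 were lower and 3 higher. Other genes of the leaf at that abundance were split, with 552 of 1639 (33.7%) lower, 676 (41.2%) higher and a median of 0.10. The 100 TPM limit was set with the values known, and the counts are a description. With median-of-ratios scaling 40 of the 45 were lower, against 52.3% of the 1639.

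**Figure D2:**
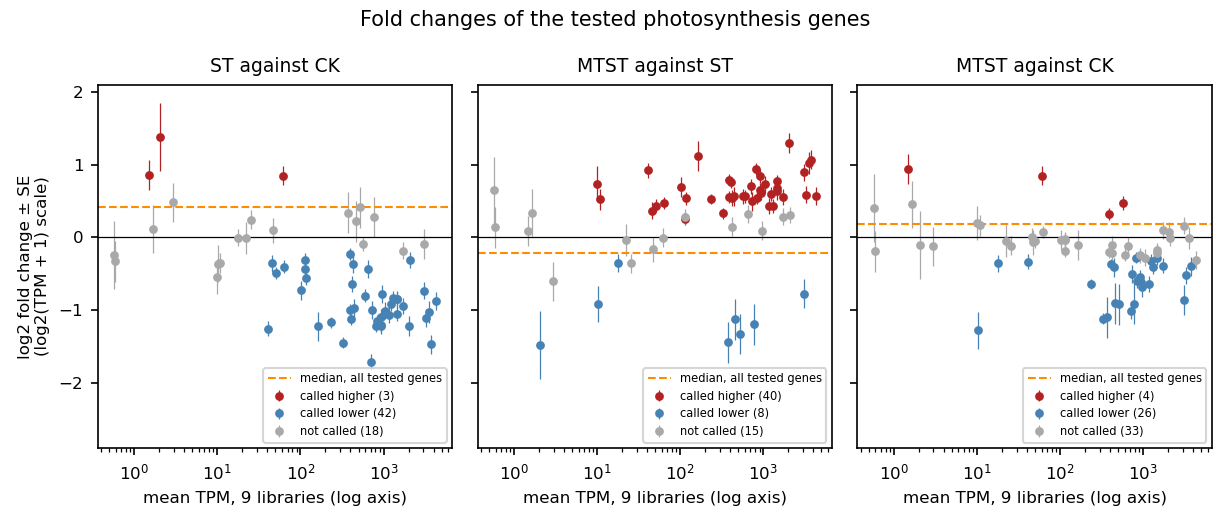
Log2 fold change with its standard error (vertical axis, log2(TPM + 1) scale) of the 63 tested photosynthesis genes against their mean TPM (horizontal, log axis), in the 3 comparisons, coloured by call, with the median of all tested genes as a dashed line. In ST against CK 42 genes are called lower, 38 of them with a mean of at least 100 TPM, and in MTST against ST 40 are called higher.

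For photosystem II, 4 genes had terms of it and not of photosystem I, Ej00028669 among them through a repair term only. Another 2 had the term of its oxygen-evolving complex. The pair Ej00034218 and Ej00011279, with separate terms for photosystem II and for the stromal thylakoid, held the highest levels. Ej00034218 stood at 1900, 1790 and 1960 TPM in CK, 911, 892 and 917 TPM in ST, and 1530, 1510 and 1590 TPM in MTST. The groups did not overlap, and each group was tight. Its log2 fold change was -1.05 (SE 0.092) in ST against CK, with a limma adjusted p of 9.8e-06. Ej00011279 fell from 1340 ± 118 TPM (SD, n = 3) to 574 ± 52.2 TPM, a log2 fold change of -1.22 (SE 0.103).

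Ej00028669, whose terms name photosystem II repair, the replacement of damaged subunits after strong light, fell by less on the TPM scale. It read 366, 370 and 395 TPM in CK and 306, 344 and 316 TPM in ST. The groups did not overlap, and the log2 fold change was -0.23 (SE 0.083, limma adjusted p = 0.033). Of the 17 other analyses 6 did not call it, with adjusted p-values up to 0.096, while median-of-ratios scaling gave -0.68 (adjusted p = 0.00015). The fourth gene, Ej00075791, is the only gene of the table with the term photosystem II reaction center, the core in which charge is separated. It was close to the detection limit, at 1.76, 0.442 and 0.418 TPM in CK and 9.47, 1.9 and 2.27 TPM in ST. It was called higher (log2 fold change 1.38, SE 0.468, limma adjusted p = 0.025), with ST replicate 1 far above the other ST libraries. Without that library the log2 fold change was 0.79 (adjusted p = 0.065).

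The oxygen-evolving complex splits water on the lumen side, and only the pair Ej00054141 and Ej00091722, at low levels, carries its term. Their terms also name an NAD(P)H nitrite reductase complex and an oxidoreductase complex, so their part in water splitting is uncertain. Since 26 genes on the map have no GO term, the level of the whole complex cannot be read from this pair. Ej00054141 read 58.4, 54.8 and 57.4 TPM in CK and 40.9, 39.4 and 40.5 TPM in ST, and was lower (log2 fold change -0.49, SE 0.087, limma adjusted p = 0.00079). Ej00091722 read 9.41, 11.1 and 13.6 TPM in CK and 7.54, 9.54 and 8.73 TPM in ST, with some overlap, and its log2 fold change of -0.35 (SE 0.143) missed the threshold at a limma adjusted p of 0.051. After median-of-ratios scaling it was called lower, at -0.76 (adjusted p = 0.0019). Both genes also carry terms for cyclic electron transport, and so does Ej00062262, a thylakoid lumen gene that was lower by more than they were. Ej00062262 has the nitrite reductase complex term as well, so its role is likewise uncertain. It read 55.7, 52.6 and 60.5 TPM in CK and 25.1, 20.4 and 23.6 TPM in ST, with no overlap (log2 fold change -1.25, SE 0.105, limma adjusted p = 7.8e-06).

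Among the electron carriers, the pair Ej00026765 and Ej00042379 is annotated as transporting electrons in both the cyclic and the noncyclic pathway. Ej00026765 had the largest fall of all 63 genes. It stood at 1200, 1300 and 1030 TPM in CK, 342, 376 and 356 TPM in ST, and 563, 552 and 634 TPM in MTST. Every ST library was below every library of the other groups, and the log2 fold change in ST against CK was -1.71 (SE 0.107, limma adjusted p = 1.5e-06). Ej00042379 began at the same level, 1200 ± 28.6 TPM (SD, n = 3) in CK, and read 540 ± 20.3 TPM in ST (log2 fold change -1.15, SE 0.085).

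The pair Ej00082099 and Ej00058956 carries the term for taking electrons from the cytochrome b6/f complex, together with copper ion homeostasis. Ej00082099 was the most abundant photosynthesis gene in CK, at 5330, 5620 and 5560 TPM, and had 3150, 2830 and 3010 TPM in ST. Its log2 fold change was -0.88 (SE 0.122, limma adjusted p = 0.00018). Ej00058956 fell by nearly the same amount, from 2270 ± 83.5 to 1180 ± 101 TPM (SD, n = 3; log2 fold change -0.94, SE 0.105). The single gene with an iron-sulfur term, Ej00080865, which also has a term for the response to high light, was weaker and fell less, from 130 ± 6.46 to 87.9 ± 5.04 TPM (log2 fold change -0.56, SE 0.091).

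Of the 4 genes of photosystem I alone, the pair annotated with NADPH regeneration fell and the pair annotated with light harvesting in photosystem I was not called on the TPM scale. Ej00089067 read 1820, 1860 and 1750 TPM in CK and 950, 991 and 1070 TPM in ST (log2 fold change -0.85, SE 0.096, limma adjusted p = 4.8e-05). Its partner Ej00018687 went from 1640 ± 165 to 783 ± 77.8 TPM (SD, n = 3; log2 fold change -1.07, SE 0.111). In the light-harvesting pair, Ej00033475 read 1610, 1660 and 1950 TPM in CK and 1630, 1390 and 1560 TPM in ST. These ranges overlapped (log2 fold change -0.19, SE 0.117, limma adjusted p = 0.18), and Ej00082947 was far less abundant, with 46.3 ± 2.95 TPM in CK and 50.8 ± 13.5 TPM in ST (log2 fold change 0.10, SE 0.174). After median-of-ratios scaling Ej00033475 was called lower, at -0.64 (adjusted p = 0.0017), and Ej00082947 was not, at -0.35 (adjusted p = 0.11).

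**Figure D3:**
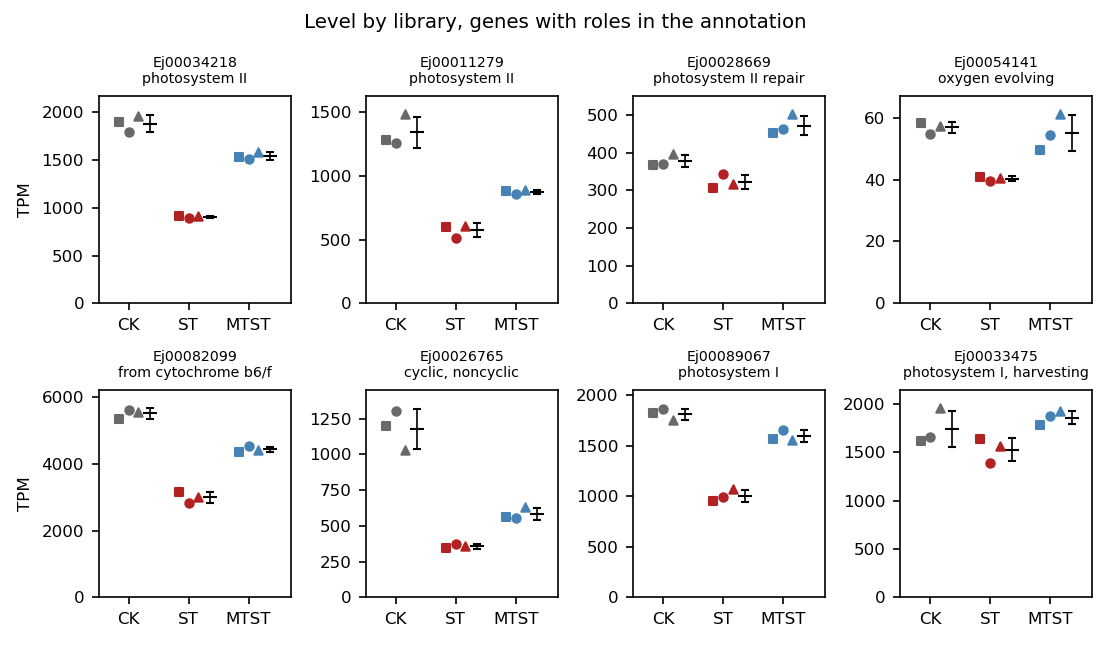
Level in TPM (vertical axes, each from 0) of 8 photosynthesis genes with a role in the annotation, by group; squares, circles and triangles are replicates 1, 2 and 3, and black marks give the mean and SD. Ej00026765 drops from 1180 ± 140 TPM in CK to 358 ± 17.2 in ST, whereas the TPM of Ej00033475, of the light-harvesting pair, overlaps between CK and ST.

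The 2 genes with electron transport terms of both photosystems, Ej00020702 and Ej00093353, are also on map00190. Ej00020702 read 560, 539 and 536 TPM in CK and 244, 243 and 261 TPM in ST. The replicates were tight and the groups far apart (log2 fold change -1.13, SE 0.073, limma adjusted p = 1.8e-06). Ej00093353 changed by -1.17 (SE 0.073) on the log2 scale, from 336 ± 12.3 to 149 ± 6.82 TPM (SD, n = 3). Of the 7 tested genes on both maps, these and Ej00048139 were lower. The other 4 were not called, among them Ej00013029 and Ej00065566, whose GO terms name the ATP synthase. Ej00065566 stood at 22.3 ± 3.42 TPM (SD, n = 3) in CK, 22.9 ± 7.48 TPM in ST and 21.5 ± 2.29 TPM in MTST. It was not called in any comparison (log2 fold change -0.006, SE 0.222, in ST against CK). Both maps draw an ATP synthase, so the lower genes may belong to it as well, which was not checked. The response of the ATP synthase as a whole therefore cannot be read from Ej00013029 and Ej00065566.

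A large part of the map carries GO terms of place rather than of function. A group of 7 genes shares the same thylakoid membrane terms, and its 5 tested members all fell. Ej00005477, the second most abundant photosynthesis gene in CK, read 4980, 5030 and 5790 TPM in CK and 1740, 1970 and 1990 TPM in ST. Its CK libraries were all more than 2 times its ST libraries (log2 fold change -1.47, SE 0.13, limma adjusted p = 1.1e-05). Ej00024583 of the same group had a similar fold change, -1.22 (SE 0.202), but a wide spread in CK, with 185, 158 and 300 TPM against 75.2, 100 and 90.2 TPM in ST. The smallest fall among the 5 was that of Ej00038894, from 3410 ± 295 to 2050 ± 56.9 TPM (SD, n = 3; log2 fold change -0.73, SE 0.118). The other 2 genes of the group, Ej00028918 and Ej00064297, were below the filter and at 0.

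The pair Ej00088237 and Ej00060514 is annotated with photosynthesis and the response to light. Ej00088237 read 2380, 2560 and 2380 TPM in CK and 875, 1160 and 1120 TPM in ST (log2 fold change -1.22, SE 0.136, limma adjusted p = 4.4e-05). Ej00060514 read 4300 ± 178 TPM (SD, n = 3) in CK and 2120 ± 304 TPM in ST (log2 fold change -1.03, SE 0.148). In 3 genes placed in the plastoglobule, a lipid body attached to the thylakoid, and sharing 1 set of terms, Ej00000257, Ej00068907 and Ej00073833, the falls were -0.64, -0.80 and -0.83 on the log2 scale.

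Genes of 1 annotation did not always move alike. In the lumen pair Ej00015108 and Ej00056838, the log2 fold changes in ST against CK were -0.31 (SE 0.11) and -0.98 (SE 0.132). In the lumen pair Ej00000743 and Ej00066739 they were -0.36 (SE 0.131) and -1.01 (SE 0.113). In both pairs the calls of the less affected gene, Ej00015108 and Ej00000743, were lost in some other analyses, with adjusted p-values up to 0.12. With median-of-ratios scaling both were called lower, at -0.76 (limma adjusted p = 0.00044) and -0.81 (limma adjusted p = 0.00056). The differences within pairs were not tested.

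Of the tested genes with GO terms, 31 of 40 were lower and 1 higher (median log2 fold change -0.86), and of those without any GO term 11 of 23 were lower and 2 higher (median -0.36). The difference between them was not tested. Among those without terms, Ej00055447 read 522, 545 and 549 TPM in CK, 200, 194 and 197 TPM in ST, and 235, 260 and 249 TPM in MTST. It had the smallest adjusted p of the 63 genes in this comparison (log2 fold change -1.45, SE 0.073, limma adjusted p = 4.5e-07). Ej00040054, the most abundant of them in CK, read 4370, 4170 and 5080 TPM in CK and 2090, 2060 and 2130 TPM in ST (log2 fold change -1.11, SE 0.121).

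Ej00028622 and Ej00016189, also without terms, showed the same size of fall with little spread. Ej00028622 read 1080, 1100 and 1080 TPM in CK and 444, 483 and 478 TPM in ST (log2 fold change -1.22, SE 0.08), and Ej00016189 went from 1300 ± 44.9 to 568 ± 49.7 TPM (SD, n = 3; log2 fold change -1.20, SE 0.096). Ej00080719 fell by 0.78 (SE 0.127) on the log2 scale from CK to ST. It read 814, 665 and 823 TPM in ST and 832, 799 and 813 TPM in MTST, with overlapping ranges and no call between these groups (log2 fold change 0.09, SE 0.127, limma adjusted p = 0.59).

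Few genes of the map were higher after salt. Beside Ej00075791 they were Ej00000409 and Ej00082926, both without GO terms. Ej00000409 read 39.4, 42.4 and 37 TPM in CK, 57.3, 87.1 and 74.6 TPM in ST and 71.1, 73.4 and 71 TPM in MTST. All 6 salt-treated libraries were above the CK libraries (log2 fold change 0.85, SE 0.131, limma adjusted p = 0.00034), and the call held in every other analysis. Ej00082926 was barely expressed, at 0.570 ± 0.160 TPM (SD, n = 3) in CK and 1.86 ± 0.520 TPM in ST.

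**Figure D4:**
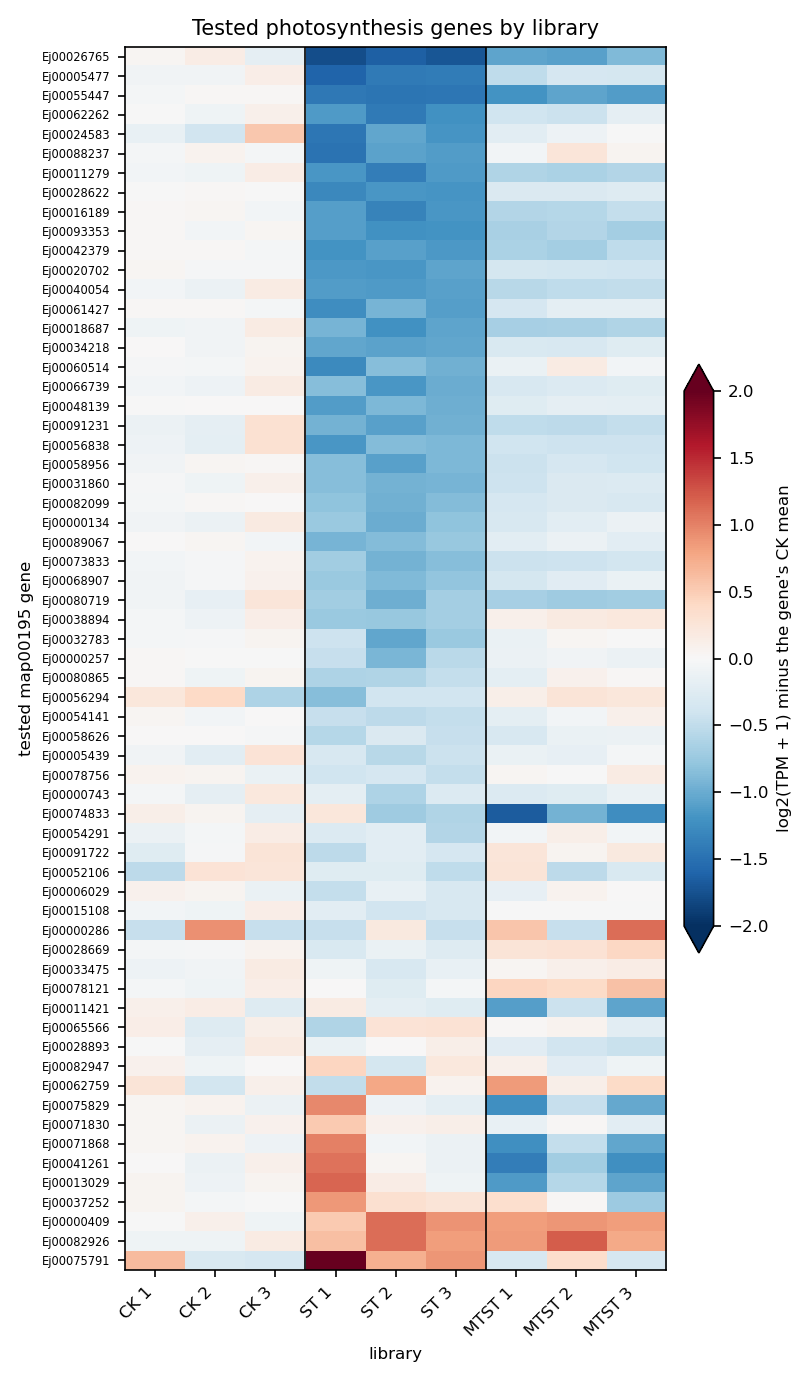
Log2(TPM + 1) of the 63 tested photosynthesis genes (rows, ordered by the fold change in ST against CK) in the 9 libraries (columns), minus the mean of each gene in CK; blue is lower and red is higher than CK, and the scale ends at 2 in either direction. The ST columns are blue in most rows, the MTST columns are paler, and a block of rows near the bottom is red in ST replicate 1 only.

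The second comparison asks what melatonin given before salt changed, MTST against ST. Of the 63 photosynthesis genes, 40 were higher in MTST, 8 were lower and 15 were not called. Of all tested genes 7.9% were higher and 29.8% lower. The median log2 fold change was 0.53 for the photosynthesis genes and -0.22 for all tested genes. After median-of-ratios scaling 45 were higher and 4 lower, against 15.1% and 13.7% of all tested genes, with medians of 0.73 and -0.002. Without MTST replicate 3, 36 were higher and 5 lower, and without ST replicate 1, 38 were higher and 7 lower. This comparison and the first share the ST libraries, so the values of a gene in the 2 are not independent of each other.

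The largest rise was that of Ej00088237 of the light-response pair, which read 2350, 2870 and 2520 TPM in MTST, above every ST library (log2 fold change 1.30, SE 0.136, limma adjusted p = 0.00017). Its partner Ej00060514 rose by 1.02 (SE 0.148) to 4290 ± 470 TPM (SD, n = 3). Both were then near their CK levels. In the thylakoid membrane group Ej00024583 rose by 1.12 (SE 0.202) and Ej00005477 by 1.07 (SE 0.13). Ej00062262, which has a cyclic transport term among others, rose by 0.92 (SE 0.105). The electron carrier Ej00026765, with the largest fall under salt, rose by 0.70 (SE 0.107, limma adjusted p = 0.0011) to 583 ± 44.7 TPM.

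The photosystem II genes Ej00034218 and Ej00011279 were higher in MTST than in ST by 0.77 (SE 0.092) and 0.61 (SE 0.103) on the log2 scale, and the photosystem I genes Ej00089067 and Ej00018687 by 0.67 (SE 0.096) and 0.43 (SE 0.111). The genes with the oxygen-evolving term rose by 0.44 (SE 0.087) for Ej00054141 and 0.52 (SE 0.143) for Ej00091722. In the pair with the term for taking electrons from the cytochrome b6/f complex, Ej00082099 rose by 0.57 (SE 0.122) and Ej00058956 by 0.55 (SE 0.105). The iron-sulfur gene Ej00080865 rose by 0.54 (SE 0.091). The light-harvesting pair of photosystem I was not called on the TPM scale, with log2 fold changes of 0.28 (SE 0.117) for Ej00033475 and -0.16 (SE 0.174) for Ej00082947, but with median-of-ratios scaling Ej00033475 was called higher, at 0.52 (adjusted p = 0.01). Ej00000409, which was higher after salt, was not called here, at 73.0 ± 15.0 TPM in ST and 71.8 ± 1.37 TPM in MTST (SD, n = 3).

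Among the 8 genes that were lower in MTST than in ST, most showed uneven libraries. In 5 of them with a mean of at least 5 TPM, Ej00013029, Ej00041261, Ej00071868, Ej00075829 and Ej00074833, ST replicate 1 was 1.94 to 2.20 times the mean of the other ST libraries, and MTST replicate 2 was 1.44 to 1.58 times the mean of the other MTST libraries. Of all tested genes with a mean of at least 5 TPM, 0.773% had both ratios at 1.4 or above. These genes were picked after their values were seen, and the limit of 1.4 was chosen with them. Ej00013029 carries the term for the membrane part of the ATP synthase, Fo, through which protons pass. It read 542, 488 and 542 TPM in CK, 1180, 578 and 493 TPM in ST, and 238, 351 and 251 TPM in MTST.

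In Ej00013029 and the others of the 5, the MTST libraries were below the CK libraries, and the ST libraries other than replicate 1 lay near CK in 4 of the 5. Ej00071868, a plastoglobule gene with the photosynthesis term, read 827, 847 and 753 TPM in CK, 1630, 778 and 744 TPM in ST, and 346, 581 and 392 TPM in MTST. Ej00041261, without GO terms, read 396, 363 and 421 TPM in CK, 839, 403 and 362 TPM in ST, and 150, 243 and 167 TPM in MTST. Ej00075829, also without terms, had 494 ± 32.9, 617 ± 297 and 270 ± 77.2 TPM (SD, n = 3).

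On the TPM scale none of these 5 genes was called in ST against CK, and all 5 were lower in MTST against ST, with log2 fold changes of -1.33 (SE 0.276, limma adjusted p = 0.0048) for Ej00013029, -1.44 (SE 0.282) for Ej00041261, -1.19 (SE 0.281) for Ej00071868, -1.12 (SE 0.283) for Ej00075829 and -0.92 (SE 0.253) for Ej00074833. All 5 were still called without ST replicate 1, with smaller differences of -0.95, -1.06, -0.83, -0.76 and -0.62 in the same order. Ej00074833, at 11.3 ± 4.69 TPM in ST (SD, n = 3), was not called in MTST against ST after median-of-ratios scaling (adjusted p = 0.059), but was then called lower in ST against CK, at -0.78 (adjusted p = 0.026). The other 3 lower genes were Ej00075791 of the reaction centre, the plastid gene Ej00011421 and Ej00028893, and none of these was called after median-of-ratios scaling, with adjusted p-values of 0.061, 0.092 and 0.48. Ej00011421 was abundant, at 3700 ± 551 TPM in CK, 3480 ± 540 TPM in ST and 2070 ± 564 TPM in MTST (SD, n = 3). Against CK it was lower in MTST (log2 fold change -0.86, SE 0.205, limma adjusted p = 0.0076), and that call held in every other analysis.

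**Figure D5:**
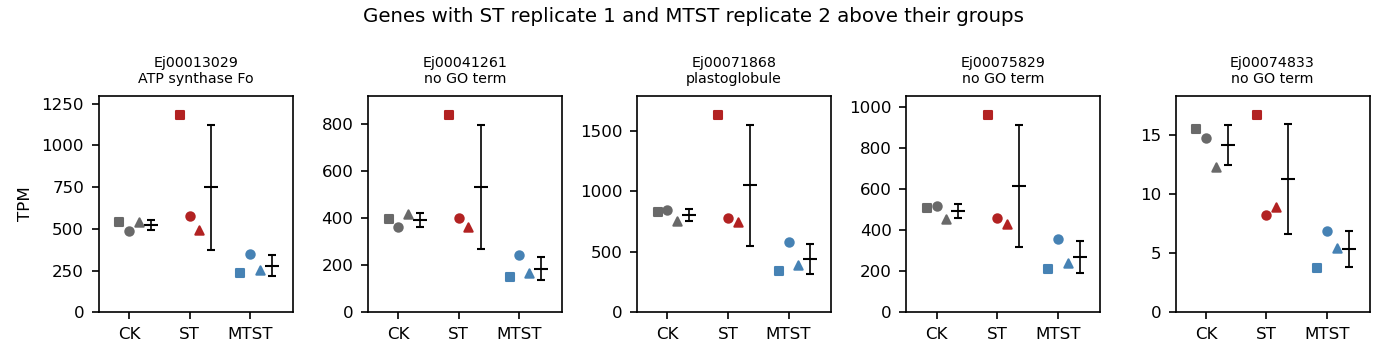
Level in TPM (vertical axes, each from 0) of the 5 photosynthesis genes in which ST replicate 1 (square) and MTST replicate 2 (circle) stand above the other libraries of their group; triangles are replicate 3 and black marks give the mean and SD. In Ej00013029 ST replicate 1 is at 1180 TPM and the other ST libraries at 578 and 493 TPM.

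The third comparison, MTST against CK, asks where plants with melatonin and salt stood relative to water. Of the 63 genes, 26 were lower than in CK, 4 were higher and 33 were not called, with a median log2 fold change of -0.21. Of all tested genes 10.9% were lower and 29.7% higher, with a median of 0.19. After median-of-ratios scaling 37 were lower and 2 higher, against 18.7% and 17.1% of all tested genes. The count of lower genes depended on single libraries. It was 17 without CK replicate 1 and 17 without MTST replicate 1, and 14 of the 26 calls held in each of the 17 other analyses that tested the gene.

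The genes furthest below CK in MTST, apart from Ej00074833 at -1.28 (SE 0.253), were Ej00055447, with 248 ± 12.6 TPM (SD, n = 3) and a log2 fold change of -1.12 (SE 0.073, limma adjusted p = 7.5e-06), Ej00041261, which is also on map00190, at -1.10 (SE 0.282) and the electron carrier Ej00026765 at -1.01 (SE 0.107, limma adjusted p = 8.4e-05). The carrier's partner Ej00042379 was at -0.61 (SE 0.085). In photosystem I, Ej00018687 was lower than in CK, at -0.64 (SE 0.111), and its partner Ej00089067 was not called, at -0.18 (SE 0.096). In photosystem II, Ej00011279 was at -0.61 (SE 0.103) and Ej00034218 at -0.29 (SE 0.092). The latter call was lost in some other analyses, with adjusted p-values up to 0.097.

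Other genes of these roles were not called in MTST against CK on the TPM scale. Ej00054141, with the oxygen-evolving term, differed from CK by -0.05 (SE 0.087), the iron-sulfur gene Ej00080865 by -0.03 (SE 0.091), Ej00088237 by 0.08 (SE 0.136) and Ej00082099 by -0.31 (SE 0.122, limma adjusted p = 0.065). A p that misses the threshold does not show that the levels were equal, and after median-of-ratios scaling Ej00054141 (-0.26, adjusted p = 0.031), Ej00082099 (-0.52, adjusted p = 0.012) and the photosystem I gene Ej00089067 (-0.39, adjusted p = 0.017) were called lower than CK. The 4 higher genes were Ej00000409, Ej00082926, Ej00078121 and the photosystem II repair gene Ej00028669. Ej00028669 read 451, 463 and 501 TPM in MTST, above all CK and ST libraries (log2 fold change 0.32, SE 0.083, limma adjusted p = 0.011 against CK). After median-of-ratios scaling its difference from CK was 0.11 (adjusted p = 0.36), and the call of Ej00078121 was also lost (adjusted p = 0.062).

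Set beside other maps in ST against CK, the antenna proteins were mostly lower too, with 23 of 27 tested genes lower and 1 higher (median log2 fold change -0.84), and in MTST against ST 23 were higher and 2 lower. Of the carbon fixation genes, 42 of 90 were lower and 38 higher after salt (median -0.12), and 46 were lower and 21 higher with median-of-ratios scaling (median -0.54). Porphyrin and chlorophyll metabolism, map00860, had 13 of 60 lower and 18 higher (median 0.07), which became 32 lower and 4 higher with median-of-ratios scaling. Oxidative phosphorylation genes that are not on map00195 had 4 of 135 lower and 103 higher (median 0.53), and 18 lower and 33 higher with that scaling (median 0.09). Genes with the GO term photosynthesis on none of map00195, map00196 and map00710 had 44 of 88 lower and 19 higher (median -0.30), and 59 lower and 7 higher with the same scaling (median -0.73). Differences between the maps were not tested.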

How the data were processed

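Leaf RNA of 9 loquat seedling samples (3 CK, 3 ST, 3 MTST, day 10) was sequenced. FPKM values were made by the authors, who used Trim-Galore and Trimmomatic for trimming, HISAT2 for alignment to the JFZ genome and Rsubread for counting per gene. The sources used here give no tool versions, and do not say how multi-mapped reads were handled or whether strand was used. The deposited table also holds the authors' group averages and their DESeq2 fold changes, p-values and calls, which were not used. All sample columns were mapped by name.

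FPKM was rescaled to TPM. Low FPKM values were whole multiples of 1 read's worth, and whole reads were recovered for 31458 of 31458 genes above 0 (tolerance 1e-05 reads), 99.979% to 99.984% of the library totals. Reads are not independent molecules, so the limit for a count of 0 covers counting error only. For 23641 genes (TPM of 1 or more in 3 or more libraries), log2(TPM + 1) was fitted in R 4.3.3 by limma 3.58.1, with trended empirical Bayes moderation, in 1 model of 9 libraries that held the group alone, and p-values were adjusted by Benjamini-Hochberg. The fit was tested on simulated data.

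The 17 other analyses were a pseudocount of 0.1, no filter, a filter of 5 TPM, FPKM as deposited, median-of-ratios scaling, limma-voom on the recovered reads, 2 groups only, a replicate block and leaving out each library. Genes named (21 by rule) were, per GO class, those with the highest level, largest rise, fall and change with melatonin, plus the 5 largest changes of each kind among called genes. A mean of at least 5 TPM was required. Partners with the same GO terms and other genes named beside them were added after their values were seen. The gene map, the lists and the rule were chosen with earlier results of these data known. Plots were drawn with matplotlib 3.10.9 in Python 3.11.15, and tables used pandas 2.3.3 and numpy 2.4.6.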

Additional observations from a re-analysis of the deposited data

How the results depend on the processing

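The counts of called photosynthesis genes that moved by more than 1.5 times were small ones, apart from the genes lower in MTST against CK. In ST against CK the genes called higher went from 3 to 1 with the stricter filter of 5 TPM, which tested 57 genes, and to 1 with limma-voom on the recovered reads, while 43 and 49 were lower. In MTST against ST the genes called lower went from 8 to 4 with median-of-ratios scaling and to 4 with voom, and in MTST against CK the genes called higher went from 4 to 2 with median-of-ratios scaling. Leaving out each library in turn gave 2 to 4 higher and 38 to 42 lower in ST against CK, 36 to 44 higher and 5 to 9 lower in MTST against ST (5 without MTST replicate 3), and 3 to 4 higher and 17 to 31 lower in MTST against CK (17 without CK replicate 1 and without MTST replicate 1). The cause of these shifts was not tested. With a library left out, the medians over the genes ran from -0.724 to -0.577, 0.497 to 0.533, and -0.258 to -0.187 in the 3 comparisons. With median-of-ratios scaling they were -1.09, 0.732 and -0.427, and with voom -1.091, 0.783 and -0.421. No direction of a call was reversed under any alternative.

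The replicate numbers do not pair the samples. Deviations from the group means of same-numbered libraries correlated at -0.152 to 0.083. With the replicate block the counts were 3 higher and 42 lower, 40 higher and 7 lower, and 4 higher and 25 lower in the 3 comparisons, and of the 63 calls of the 21 genes named by rule none changed. Weakly expressed genes are limited by depth. The 18 tested genes under 100 TPM rest on few reads in part, with a total of 10 reads over the 9 libraries for the least covered.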
